A study of Homo sapiens with 6 samples.

Results

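The transcripts described here are those of 40 genes of the centromere, the kinetochore and the spindle checkpoint, the machinery that attaches chromosomes to the mitotic spindle. All probes of the listed genes were taken by gene symbol, and 40 of 40 genes were on the array, with 65 probes, against 20045 genes with a probe in all. Of the 65 probes, 57 gave a signal above background on both arrays of at least 1 group. For every one of the 40 genes the brightest such probe, which stood for the gene, was detected on all 6 arrays, and these 40 were read among 11501 genes kept by the same rule. SGOL1, which encodes shugoshin 1, was on the array under its newer symbol SGO1. From general knowledge of when each transcript is made, 26 genes were classed as cell-cycle-driven and 8 as constitutive (BUB3, MAD1L1, ZW10, MIS12, NSL1, PMF1, CENPT and CENPP), and the class of 6 (CENPH, CENPL, CENPN, CENPO, CENPQ and DSN1) was held uncertain. These classes were assigned with earlier results of these data known.

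Centromeres are chromatin domains marked by a histone H3 variant, CENP-A, on which a network of inner proteins is built throughout the cell cycle and the microtubule-binding outer kinetochore is assembled for mitosis. Unattached kinetochores switch on the spindle checkpoint, which holds back the anaphase-promoting complex until every chromosome is attached. Many of these genes are transcribed mainly in G2 and mitosis, under the control of the DREAM and B-MYB-MuvB complexes and FOXM1, so that in a bulk culture their transcripts follow the share of dividing cells, while others are transcribed at all times.

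RNA came from SK-Mel-147, an established human melanoma cell line, 48 h after transfection, and was read on Illumina HumanHT-12 v4 arrays, 2 per group and 6 in all. The mock group received no miR-638 reagent, the miR-638 group received a synthetic mimic of the microRNA miR-638, and the antagomiR-638 group received a hairpin inhibitor of it. The sources describe the control differently, as cells given transfection reagent alone or as cells given a non-targeting oligonucleotide, and it is called mock here. The arrays of a group are labelled as duplicates, and nothing in the sources used here says that they came from separate cultures, so the p-values measure only how far these samples spread, and that spread may be technical. A single cell line and a single time point were studied, the transfection was transient, and in bulk RNA fewer cells of a kind and less RNA per cell cannot be told apart.

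Over the whole series, 19794 to 20890 probes were detected per array, and across kept probes the arrays of a group correlated at r = 0.994 to 0.995 and those of different groups at 0.976 to 0.988. The probe of the miR-638 gene was detected on 1 of 6 arrays, and so gives no check of the labels. Of 10 melanocyte and melanoma markers, 4 were detected on all arrays, SOX10, MIA, MITF and ERBB3, and PMEL, MLANA, TYR and S100B were detected on none. The summed signal of these 10 genes was 1528 to 1709 in mock, 1456 to 1548 with miR-638 and 1834 to 1895 with antagomiR-638. Among markers of other cell types, 1 of 6 fibroblast genes (LUM), 1 of 5 keratinocyte genes (KRT10), 2 of 4 leukocyte genes (CD14 and LAPTM5) and 0 of 3 endothelial genes were detected on all arrays. The fibroblast sum was 575 to 577 in mock, 442 to 469 with miR-638 and 707 to 726 with antagomiR-638, and the leukocyte sum was 44.7 to 56.5, 39.9 to 45.04 and 22.8 to 34.6 in the same order. For the keratinocyte genes the sums were 1020 to 1112, 1134 to 1169 and 1158 to 1291, and for the endothelial genes they did not exceed 7.91. The leukocyte marker PTPRC, the endothelial marker PECAM1 and the keratinocyte marker KRT5 were detected on no array. The part of these marker shifts in the results below was not tested.

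The microRNA whose level the reagents were meant to change lies at chr19:10718419-10718443 on the + strand of GRCh38.p14, and its mature sequence of 25 bases from RefSeq is shown with the seed, bases 2 to 8, in capitals.
hsa-miR-638: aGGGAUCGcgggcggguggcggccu

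Promoter sequence was examined because the genes of the cell-cycle-driven class are known for a shared pair of promoter elements. The cell cycle homology region, or CHR, is an element bound by the MuvB core of DREAM and B-MYB-MuvB, and the inverted CCAAT box is bound by the factor NF-Y. RefSeq start-site windows of GRCh38.p14, from 250 bases before to 50 after a start, were at hand for 33 of the 40 genes, 22 cell-cycle-driven, 7 constitutive and 4 of uncertain class. CENPH, CENPL, CENPM, BUB3, TTK, BIRC5 and TROAP had no entry. The windows shown, from the first entry of each gene on the strand of the gene, are those of the 4 cell-cycle-driven genes with the largest fall that hold a CHR motif and of the 2 constitutive genes with the highest mean signal that had an entry. Capitals mark matches on either strand. The CHR was searched as TTTGAA, which reads as TTCAAA where the match is on the other strand, and in the variant forms with the letters TTCGAA, which is its own reverse complement, or with the letters CTTGAA instead. The NF-Y box was searched as CCAAT, which reads ATTGG on the other strand. For E2F the search took TTTCCCGC, and beside it the forms TTTGGCGC as well as TTTCGCGC and, last of the set, TTTGCCGC.
GTSE1, cell-cycle-driven, chr22:46296620-46296919, + strand: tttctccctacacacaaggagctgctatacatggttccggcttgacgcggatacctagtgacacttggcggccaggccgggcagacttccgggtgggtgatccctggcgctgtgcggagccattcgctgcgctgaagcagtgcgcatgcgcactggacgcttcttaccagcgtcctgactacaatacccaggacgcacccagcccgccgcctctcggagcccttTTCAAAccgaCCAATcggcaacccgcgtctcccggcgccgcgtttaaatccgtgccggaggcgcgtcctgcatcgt
HJURP, cell-cycle-driven, chr2:233854486-233854785, - strand: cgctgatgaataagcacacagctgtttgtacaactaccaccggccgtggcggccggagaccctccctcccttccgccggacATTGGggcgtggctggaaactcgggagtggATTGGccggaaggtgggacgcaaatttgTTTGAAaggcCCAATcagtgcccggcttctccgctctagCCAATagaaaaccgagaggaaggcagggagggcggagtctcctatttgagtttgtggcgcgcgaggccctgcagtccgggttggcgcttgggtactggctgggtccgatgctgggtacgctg
BUB1, cell-cycle-driven, chr2:110678014-110678313, - strand: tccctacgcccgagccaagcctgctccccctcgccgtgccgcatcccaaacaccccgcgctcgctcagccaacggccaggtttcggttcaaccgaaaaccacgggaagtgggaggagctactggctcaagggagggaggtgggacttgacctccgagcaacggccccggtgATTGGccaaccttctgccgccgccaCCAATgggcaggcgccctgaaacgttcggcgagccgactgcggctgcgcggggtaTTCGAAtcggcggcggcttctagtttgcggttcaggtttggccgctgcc
ZWINT, cell-cycle-driven, chr10:56361210-56361509, - strand: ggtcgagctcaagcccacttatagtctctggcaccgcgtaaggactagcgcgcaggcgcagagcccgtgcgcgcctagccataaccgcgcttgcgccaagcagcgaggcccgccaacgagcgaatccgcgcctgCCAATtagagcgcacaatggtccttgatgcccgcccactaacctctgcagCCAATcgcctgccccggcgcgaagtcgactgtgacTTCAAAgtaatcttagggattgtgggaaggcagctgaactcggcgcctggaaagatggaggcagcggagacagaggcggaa
MIS12, constitutive, chr17:5486124-5486423, + strand: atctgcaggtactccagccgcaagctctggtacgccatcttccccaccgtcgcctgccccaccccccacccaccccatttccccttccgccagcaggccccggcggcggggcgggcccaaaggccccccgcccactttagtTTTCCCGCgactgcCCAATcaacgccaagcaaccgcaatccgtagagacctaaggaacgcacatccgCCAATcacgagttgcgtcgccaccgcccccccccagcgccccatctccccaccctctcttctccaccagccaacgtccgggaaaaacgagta
NSL1, constitutive, chr1:212791728-212792027, - strand: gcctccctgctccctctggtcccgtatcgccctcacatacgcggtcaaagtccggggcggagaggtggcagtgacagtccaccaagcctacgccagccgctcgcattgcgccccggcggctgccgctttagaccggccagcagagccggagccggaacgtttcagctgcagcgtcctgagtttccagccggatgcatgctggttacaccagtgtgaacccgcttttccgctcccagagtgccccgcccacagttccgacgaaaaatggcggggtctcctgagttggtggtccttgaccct

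A CHR match was present in 17 of 22 cell-cycle-driven genes (77.3%) and in 2 of 7 constitutive genes (28.6%), against 29.1% of 27305 genes with a promoter in the table. Within 100 bases before to 50 after the start, the counts were 16 of 22 (72.7%) and 1 of 7 (14.3%), against 14.2% of all. CCAAT was found in 15 of 22 (68.2%) and 4 of 7 (57.1%), against 39.7%, and the CHR together with CCAAT in 12 of 22 (54.5%) and 1 of 7 (14.3%), against 11.8%. An E2F match of the kind searched was in 1 of 22 (4.55%) and 1 of 7 (14.3%), against 3.99%. Of the 4 genes of uncertain class, 2 held a CHR match, CENPN and CENPO. Of the 77 matches in all entries of these genes, 1 pair overlapped. A match is a description of letters and not a binding site, and the classes were assigned in part from the same knowledge of DREAM targets, so the shares are not independent of the classes.

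**Figure D1:**
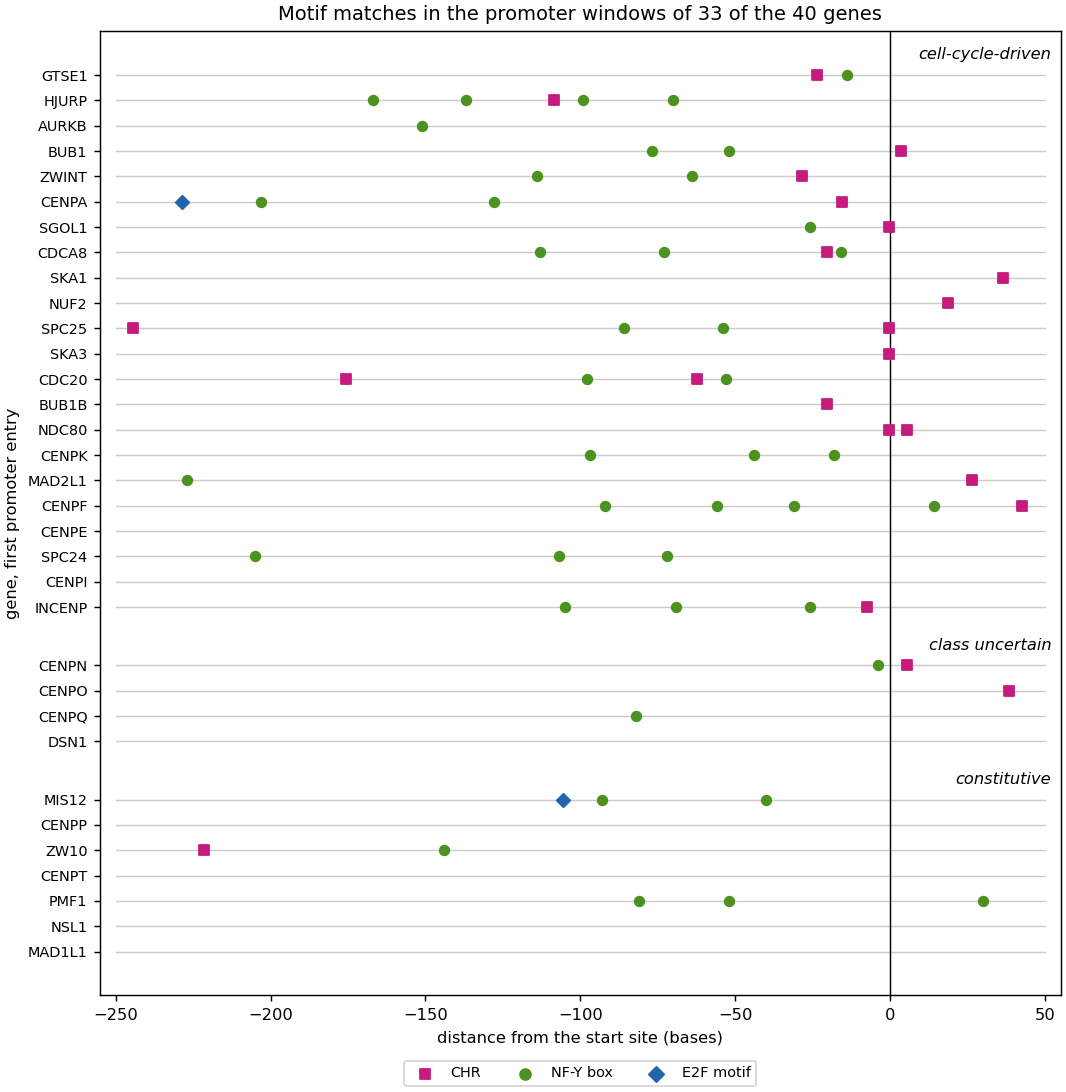
Positions of motif matches in the first promoter entry of 33 genes, in bases from the start site (x axis), by class and, within class, in order of the antagomiR-638 minus mock difference; squares are CHR, circles NF-Y (CCAAT) boxes and diamonds E2F motifs. CHR matches lie near the start in most cell-cycle-driven genes (16 of 22 within 100 bases before to 50 after, counted over all entries) and in 1 of 7 constitutive genes, CENPP, whose match is in another entry than the one drawn.

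AntagomiR-638 was set against mock to ask what differs in cells given the inhibitor. The control is not known to be a matched control inhibitor. Whether a difference comes from less miR-638 or from the oligonucleotide itself was not tested. Among the 26 cell-cycle-driven genes, 25 fell and 0 rose, with a median difference of -1.27 on the log2 scale, which is 0.414 of the mock signal, and a range of -1.72 (TROAP) to -0.42 (INCENP). Of the 8 constitutive genes, 0 fell and 0 rose, with a median of 0.11, and of the 6 genes of uncertain class 3 fell (CENPN, CENPO and CENPH), with a median of -0.75. For all 11501 genes the median was 0.01, and 4.78% were called lower and 5.83% higher, at an adjusted p of 0.01 or less in limma's moderated test. Unadjusted p-values under 0.05 were found for 2 of the 8 constitutive genes, MIS12 and CENPP, both lower, against 18.0% of all genes lower and 20.4% higher by that measure.

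Array by array, the median of the cell-cycle-driven genes relative to the mock mean was -0.04 and 0.04 on the mock arrays, 0.01 and -0.0025 on the miR-638 arrays, and -1.29 and -1.22 on the antagomiR-638 arrays (log2 units). That of the constitutive genes was 0.02 and -0.02, then 0.25 and 0.17, then 0.08 and 0.10 in the same order. The antagomiR-638 arrays were thus far below the rest for the cell-cycle-driven genes and close to the mock mean for the constitutive genes, and for the uncertain genes their medians were -0.76 and -0.72. Both antagomiR-638 arrays lay below all 4 other arrays for 26 of 26 cell-cycle-driven, 6 of 6 uncertain and 2 of 8 constitutive genes, against 21.4% of all genes. The difference between the classes was not tested, because genes are not replicates of a condition. As the classes were assigned with earlier results of these data known, this difference is not independent of those results.

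**Figure D2:**
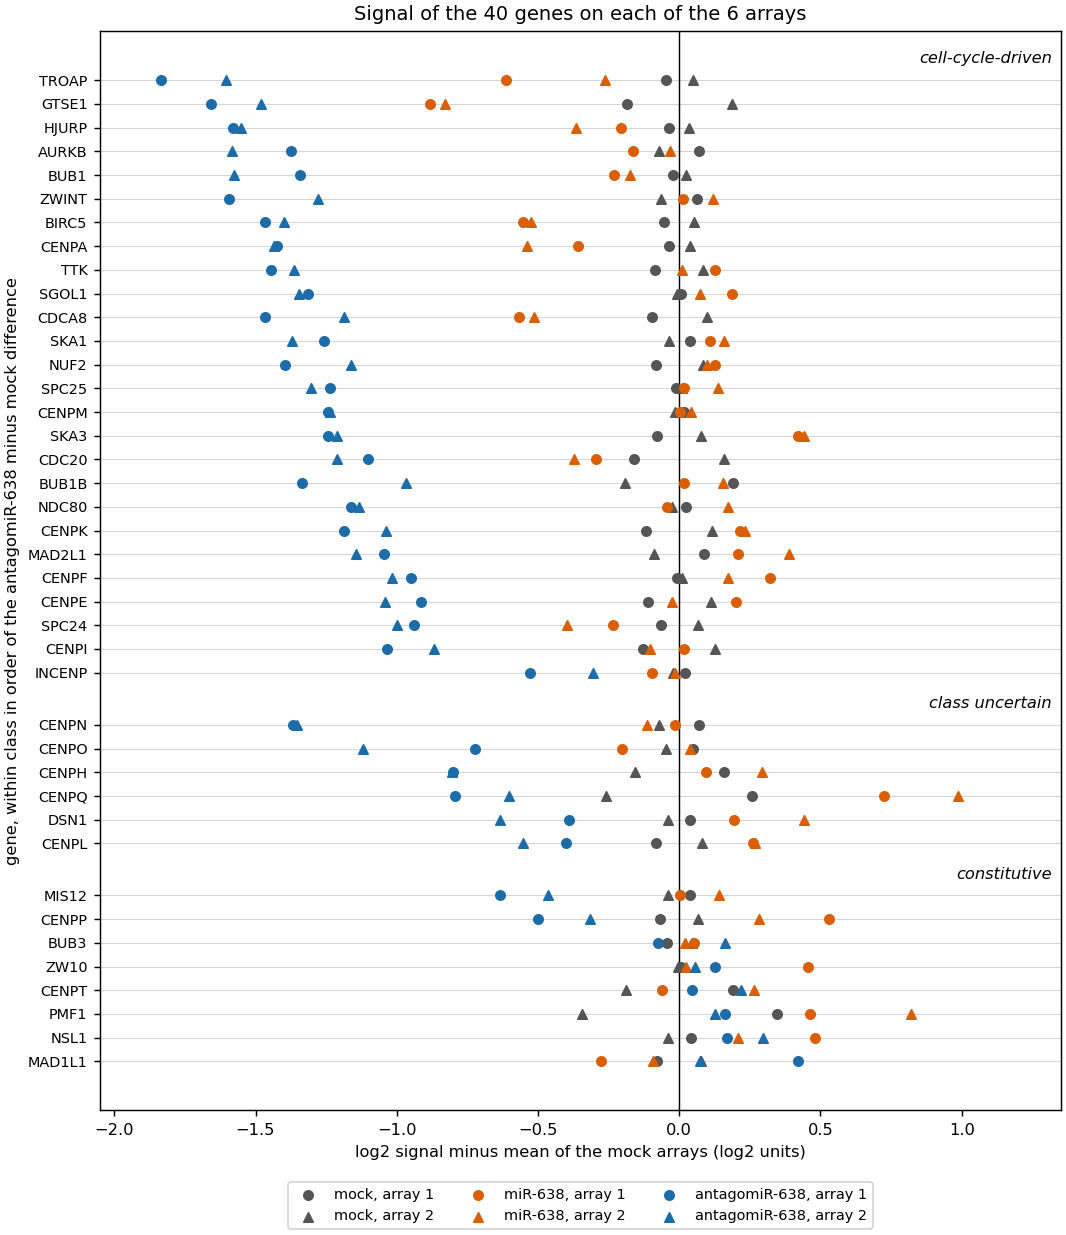
Signal of each of the 40 genes on each of the 6 arrays, as the log2 value minus the mean of the mock arrays (x axis, log2 units); colours are groups, circles array 1 and triangles array 2 of a group. The antagomiR-638 points of every cell-cycle-driven and uncertain gene lie left of the other 4 points, while those of 6 of the 8 constitutive genes do not.

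At the centromere, CENPA encodes the histone variant itself and HJURP its dedicated chaperone. HJURP, the larger change, read 617 and 649.5 on the mock arrays, 547 and 488 with miR-638, and 201 and 206 with antagomiR-638 (deposited intensity). CENPA read 345 and 364, 273 and 239, and 122 and 121 in the same order. For both genes the antagomiR-638 arrays were the lowest and no groups overlapped. HJURP fell by 1.57 ± 0.12 (SE, n = 2 arrays per group; limma, adjusted p = 9.75e-05), to 0.338 of its mock signal, and CENPA fell by 1.43 ± 0.12 (adjusted p = 0.00015) on the log2 scale. Both calls held whichever array was left out.

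The inner network that sits on CENP-A chromatin was represented by 10 genes, of which 6 fell and 0 rose (median -0.86). CENPN, whose product binds CENP-A nucleosomes, had the largest difference, from 691 and 626 in mock and 651 and 606 with miR-638 to 245 and 248 with antagomiR-638. Its antagomiR-638 arrays were well below the other 4, and it fell by 1.36 ± 0.12 (adjusted p = 0.000152). CENPM (-1.24 ± 0.11, adjusted p = 0.000165), CENPK (-1.11 ± 0.13, 0.000539), CENPI (-0.95 ± 0.13, 0.00141), CENPO (-0.92 ± 0.15, 0.00356) and CENPH (-0.80 ± 0.14, 0.00415) fell as well. CENPQ (-0.70 ± 0.18, adjusted p = 0.0241) and CENPL (-0.48 ± 0.12, 0.0230) were not called. Each of these genes encodes a subunit of the network.

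Within this network the constitutive genes CENPT and CENPP were not called. CENPT, whose product bridges DNA to the outer kinetochore and had the smallest difference of the network, read 131 and 97.2 in mock, 108 and 139 with miR-638 and 117 and 134 with antagomiR-638. These groups overlapped (0.13 ± 0.16, adjusted p = 0.614). CENPP, whose product belongs to the CENP-O subcomplex, read 16.7 and 19.9, 33.4 and 25.7, and 7.83 and 11.5 in the same order. Its groups did not overlap and its antagomiR-638 arrays were the lowest, at a difference of -0.41 ± 0.13 (adjusted p = 0.0605). CENPP, CENPI and CENPO were dim, with detection p-values up to 0.0429 with antagomiR-638, and an added offset of 16 draws differences of dim probes toward 0. The call of CENPH was lost without mock array 1 (adjusted p = 0.0295), antagomiR-638 array 1 (0.0424) or antagomiR-638 array 2 (0.0371), and that of CENPI without mock array 2 (0.0147), antagomiR-638 array 1 (0.0236) or antagomiR-638 array 2 (0.0122). CENPO lost it without mock array 1 (0.0252), mock array 2 (0.0212), antagomiR-638 array 1 (0.0101) or antagomiR-638 array 2 (0.0347), and CENPK without antagomiR-638 array 1 (0.0120).

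The outer kinetochore, which holds the microtubule ends, had 14 genes, of which 9 fell and 0 rose (median -0.98). ZWINT, which encodes a partner of the KNL1 scaffold that helps recruit checkpoint proteins, read 670.3 and 612 in mock, 646 and 697 with miR-638, and 201 and 255 with antagomiR-638. The antagomiR-638 arrays were the lowest and did not overlap with the rest, and ZWINT fell by 1.44 ± 0.14 (adjusted p = 0.000223). All 4 genes of the NDC80 complex, the main microtubule coupler, fell, namely NUF2 (-1.28 ± 0.13, adjusted p = 0.000283), SPC25 (-1.27 ± 0.11, 0.000167), NDC80 (-1.15 ± 0.12, 0.00036) and SPC24 (-0.97 ± 0.12, 0.000784). SKA1 (-1.31 ± 0.11, 0.000156) and SKA3 (-1.23 ± 0.12, 0.000209), of the SKA complex that tracks microtubule ends, fell too. The motor gene CENPE (-0.98 ± 0.14, 0.00134) and CENPF (-0.98 ± 0.12, 0.000617), which encodes a large coiled-coil protein of the fibrous corona, completed the 9.

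The MIS12 complex links the inner centromere to the NDC80 complex, and none of its 4 genes was called. MIS12, its namesake, read 851 and 804 in mock, 828 and 913 with miR-638, and 527 and 595 with antagomiR-638. Both antagomiR-638 arrays were below the other 4, and the difference of -0.55 ± 0.12 (adjusted p = 0.0134) was the largest of the constitutive class. DSN1 had a difference of -0.51 ± 0.14 (0.0289). NSL1 read 372 and 350.2 in mock, 510.2 and 419.6 with miR-638 and 407 and 446 with antagomiR-638, so that the antagomiR-638 arrays lay above mock and overlapped with miR-638 (0.23 ± 0.13, 0.242). PMF1 read 35.5 and 15.96, 39.9 and 55.6, and 29.4 and 28.2 in the same order, with antagomiR-638 inside the range of mock (0.14 ± 0.21, 0.668). Its probe was dim, and the offset draws its differences toward 0.

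ZW10, which encodes a subunit of the RZZ complex that brings dynein to kinetochores, had the smallest difference of the outer kinetochore. It read 328 and 325 in mock, 454 and 333 with miR-638, and 358 and 340.0 with antagomiR-638, and the antagomiR-638 arrays lay inside the miR-638 range (0.09 ± 0.15, adjusted p = 0.705). MIS12 passed the threshold under some other settings (adjusted p = 0.00281 with an offset of 50). Among the called genes, CENPE lost its call without mock array 2 (adjusted p = 0.0147), antagomiR-638 array 1 (0.0153) or antagomiR-638 array 2 (0.0204), and CENPF (0.0101 and 0.0109) and SPC24 (0.0126 and 0.0132) without antagomiR-638 array 1 or 2.

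Of the 7 spindle checkpoint genes, 5 fell and 0 rose (median -1.15), and these 5 were the cell-cycle-driven ones. BUB1, which encodes a kinase that recruits the checkpoint proteins, read 335 and 347 in mock, 288 and 300.5 with miR-638, and 125 and 104 with antagomiR-638. The groups did not overlap, antagomiR-638 was the lowest, and BUB1 fell by 1.46 ± 0.12 (adjusted p = 0.000152). TTK, the MPS1 kinase that starts checkpoint signalling, fell by 1.41 ± 0.12 (0.000152). CDC20, the activator of the anaphase-promoting complex that the checkpoint blocks, fell by 1.16 ± 0.14 (0.000601), BUB1B, which encodes BUBR1, fell by 1.15 ± 0.17 (0.00174), and MAD2L1, which encodes MAD2, fell by 1.09 ± 0.13 (0.000569).

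The remaining checkpoint genes, BUB3 and MAD1L1, were not called. BUB3, whose product carries BUB1 and BUBR1 to the kinetochore, read 3501 and 3723 in mock, 3740 and 3666 with miR-638, and 3425 and 4041 with antagomiR-638. Its antagomiR-638 arrays spanned all the others (0.04 ± 0.12, adjusted p = 0.837). MAD1L1, which encodes the platform on which MAD2 is converted, read 32.6 and 38.2, 26.4 and 32.2, and 52.7 and 38.1 in the same order, with antagomiR-638 overlapping mock (0.25 ± 0.15, 0.263). The MAD1L1 probe was dim as well, so that the offset draws its differences toward 0. The call of BUB1B was lost without mock array 1 (adjusted p = 0.0135) or antagomiR-638 array 1 (0.0265), and those of MAD2L1 (0.0108) and CDC20 (0.0117) without antagomiR-638 array 2.

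**Figure D3:**
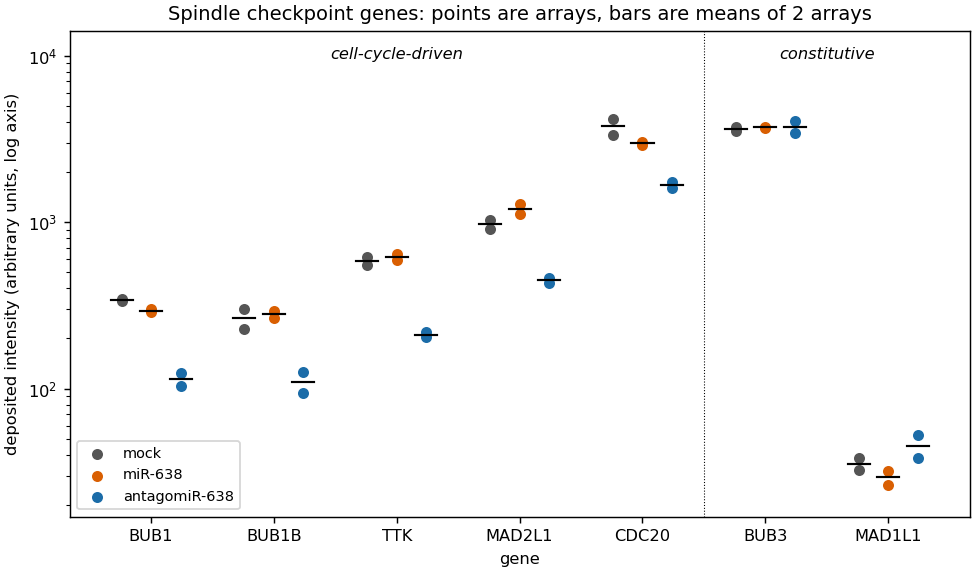
Deposited intensity (y axis, arbitrary units, log axis) of the 7 spindle checkpoint genes on each array, points by group, with bars at the mean of 2 arrays. The antagomiR-638 points of the 5 cell-cycle-driven genes lie below all mock and miR-638 points, and those of BUB3 and MAD1L1 overlap with the mock points; heights of different genes come from different probes and cannot be compared.

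The chromosomal passenger complex corrects faulty attachments and was represented by its kinase, 3 partner genes and SGOL1, whose product protects cohesin at the centromere. Of the 5, 4 fell and 0 rose (median -1.33). AURKB, the kinase Aurora B, read 552 and 499 in mock, 467 and 513 with miR-638, and 193 and 164 with antagomiR-638. AntagomiR-638 was the lowest and apart from the rest, and AURKB fell by 1.48 ± 0.13 (adjusted p = 0.000152). BIRC5, which encodes survivin, fell by 1.43 ± 0.11 (0.000132), SGOL1 by 1.33 ± 0.11 (0.000152) and CDCA8, which encodes borealin, by 1.33 ± 0.14 (0.000309).

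INCENP, the scaffold of the passenger complex, was the cell-cycle-driven gene that was not called. It read 31.7 and 30.4 in mock, 27.97 and 30.5 with miR-638, and 16.7 and 22.1 with antagomiR-638. The antagomiR-638 arrays were below the other 4, but the difference was the smallest of the class (-0.42 ± 0.12, adjusted p = 0.0406), on a dim probe whose differences the offset draws toward 0.

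The spindle genes TROAP and GTSE1 both fell. TROAP, which encodes the spindle-pole protein tastin, read 358 and 384 in mock, 237 and 306 with miR-638, and 92.5 and 111 with antagomiR-638. No groups overlapped, antagomiR-638 was the lowest, and TROAP fell by 1.72 ± 0.15 (adjusted p = 0.000152), to 0.304 of its mock signal. GTSE1, which encodes a microtubule-associated protein made in G2, read 163 and 215, 94.2 and 98.4, and 48.5 and 56.9 in the same order. Its groups stood in the order antagomiR-638, miR-638, mock without overlap, and it fell by 1.57 ± 0.15 (0.0002) with antagomiR-638.

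Of the 28 calls in this comparison, 18 held under all 16 other settings that kept limma's variance moderation, including each array left out, and the other 10 are those named above with the array concerned. Of these 10, CENPH (adjusted p = 0.0170), CENPO (0.0195) and BUB1B (0.0143) were also not called without the probe filter. Not all of the 16 settings could lose a call. The threshold of 0.05 is looser, and the deposited processed table gave the same counts and class medians as the main fit. Without moderation, in the same fit and the same comparison of antagomiR-638 with mock, 0 of 40 genes were called at an adjusted p of 0.01. The adjusted p-values of that unmoderated comparison were 0.0234 to 0.125 among the cell-cycle-driven genes, and 26 of 26 differences were below 0. The study's methods name an analysis of variance on its own quantile-normalized data. That procedure was not rerun, as the fit used values after normexp with the added offset and compared 2 groups at a time.

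**Figure D4:**
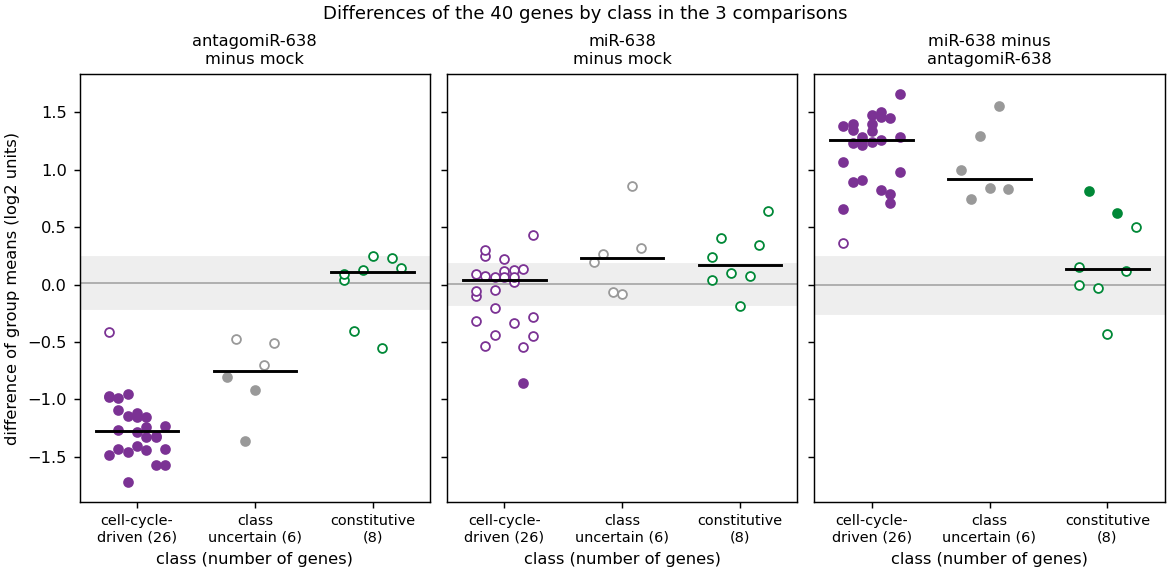
Difference of group means (y axis, log2 units) for the 40 genes by class in the 3 comparisons; each point is a gene, filled where called at an adjusted p of 0.01, bars are class medians, and the grey band and line give the quartiles and median of all 11501 genes. The cell-cycle-driven genes lie at a median of -1.27 with antagomiR-638 and 0.04 with miR-638 against mock, and the constitutive genes at 0.11 and 0.17; the third panel shares its arrays with the other two.

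MiR-638 was set against mock to ask what differs in cells given the mimic, and here too an effect of the oligonucleotide itself was not tested. GTSE1 fell, and the other 39 genes were not called in either direction. Over all genes 1.13% were called lower and 1.93% higher, so that 1 gene of 40 is near the background. GTSE1 fell by 0.86 ± 0.15 (adjusted p = 0.0092), to 0.553 of its mock signal, and the values above show both miR-638 arrays below both mock arrays. Its call was lost whichever of the 6 arrays was left out, with adjusted p-values of 0.0117 without mock array 1, 0.0675 without mock array 2, 0.0657 without miR-638 array 1, 0.0540 without miR-638 array 2, 0.0258 without antagomiR-638 array 1 and 0.0252 without antagomiR-638 array 2.

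The cell-cycle-driven genes had a median of 0.04, with 12 differences below 0 and 14 above, and at an unadjusted p under 0.05 there were 8 lower and 2 higher, against 13.3% and 14.9% of all genes. The constitutive genes had a median of 0.17 and the uncertain ones 0.23, with 0 called, and 3 and 2 higher at an unadjusted p under 0.05. By role, 13 of 14 outer kinetochore genes had differences above 0 (median 0.12), SPC24 (-0.32 ± 0.12, adjusted p = 0.137) being the exception. None of the 14 was called, and over all 11501 genes 5777 had differences above 0. Further kept probes of ZWINT (-0.18 and 0.34) and SPC25 (-0.12) did not all keep the sign, while those of CENPE and NUF2 did. The centromere genes (median -0.37), the passenger genes (-0.10) and the spindle genes (-0.65) lay lower. Genes named here for an adjusted p between 0.01 and 0.05, and so chosen after their values were seen, were BIRC5 (-0.54 ± 0.11, adjusted p = 0.0218), CDCA8 (-0.54 ± 0.14, 0.0397), CENPA (-0.45 ± 0.12, 0.0471), CENPQ (0.86 ± 0.18, 0.0211) and SKA3 (0.43 ± 0.12, 0.0495). Further kept probes of BIRC5 (-0.10, limma adjusted p = 0.686) and CENPA (-0.20, 0.334) had smaller differences of the same sign. On that BIRC5 probe the miR-638 and mock arrays overlapped.

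CENPQ, a subunit of the CENP-O subcomplex, read 93.7 and 60.6 in mock, 135 and 166 with miR-638, and 36.9 and 44.4 with antagomiR-638. SKA3 read 227 and 254, 327 and 331, and 92.2 and 94.4 in the same order. In both, miR-638 was the highest and antagomiR-638 the lowest group, with no overlap. As the genes of this paragraph were chosen by their difference between miR-638 and mock, such orders are no further support. The share of all genes with such an order was not counted. BIRC5 read 791 and 853 in mock, 555 and 566 with miR-638, and 288 and 302 with antagomiR-638, and CDCA8 read 404 and 466, 288 and 299, and 146.7 and 182, so that miR-638 lay between the other groups for these genes and for CENPA. The 2 mock arrays serve in each of these comparisons, so a gene's values in one are not independent of those in the other.

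The direct comparison of miR-638 with antagomiR-638 takes no level from the mock arrays, which enter its fit only through the shared estimate of spread and the joint normalization. It reuses the antagomiR-638 and miR-638 arrays of the comparisons above, and so is not independent of them. Of the 26 cell-cycle-driven genes, 25 were higher with miR-638 and 0 lower, with a median of 1.26 or 2.39-fold, and all 6 genes of uncertain class were higher (median 0.92). Among the 8 constitutive genes 2 were higher, CENPP (0.81 ± 0.13, adjusted p = 0.00246) and MIS12 (0.62 ± 0.12, 0.00585), with a class median of 0.13. Over all genes 7.55% were called higher and 8.28% lower, at a median of -0.01. SKA3, at 1.66 ± 0.12 (4.07e-05), had the largest difference of the 40, followed by CENPQ (1.55 ± 0.18, 0.000371), ZWINT (1.5025 ± 0.14, 0.000123), TTK (1.47 ± 0.12, 7.63e-05) and SGOL1 (1.46 ± 0.11, 6.19e-05). INCENP (0.36 ± 0.12, 0.0602) was the cell-cycle-driven gene that was not called. GTSE1, lower than mock in both other groups, differed by 0.71 ± 0.15 (0.0071).

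In this comparison 19 of 33 calls held whichever array was left out. That of CENPP was lost without miR-638 array 1 (adjusted p = 0.0237), antagomiR-638 array 1 (0.0327) or antagomiR-638 array 2 (0.0143). That of MIS12 was lost without mock array 2 (0.0103), miR-638 array 1 (0.0212), miR-638 array 2 (0.0448), antagomiR-638 array 1 (0.0586) or antagomiR-638 array 2 (0.0227). CENPL, SPC24, CDCA8, CDC20 and GTSE1 lost their calls whichever of the 4 arrays compared was left out, with adjusted p-values of at most 0.0275, 0.0377, 0.0363, 0.0291 and 0.0718 in this order. CENPH (0.0126, 0.0156 and 0.0146) and DSN1 (0.0242, 0.0124 and 0.0303) lost theirs without miR-638 array 2, antagomiR-638 array 1 or antagomiR-638 array 2. CENPI (0.0148, 0.0210 and 0.0106) did so without miR-638 array 1, antagomiR-638 array 1 or antagomiR-638 array 2, and CENPO (0.0144, 0.0391 and 0.0400) without miR-638 array 1, miR-638 array 2 or antagomiR-638 array 2. BUB1B was lost without miR-638 array 2 (0.0115) or antagomiR-638 array 1 (0.0150), CENPE without antagomiR-638 array 2 (0.0118), and BIRC5 without antagomiR-638 array 1 (0.0115).

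For 12 of the 40 genes, further kept probes gave a reading from another part of the transcripts. Of 12 such probes for 9 cell-cycle-driven genes, 9 were lower with antagomiR-638 than in mock and 3 were not called. The 3 were dim, with mock means of 4.61 (NUF2), 13.0 (ZWINT) and 25.4 (SPC25), while brighter probes of the same genes fell. Dimness alone does not set them apart, as probes with mock means of 14.2 and 34.0 (CENPM) and 36.5 (BIRC5) were called lower. The CENPM probe at 14.2 was detected on neither antagomiR-638 array. The second bright ZWINT probe had a difference of -1.63 ± 0.14 (adjusted p = 0.00015), against -1.44 for the probe that stood for the gene, and the second CENPA probe had -1.38 ± 0.12 (0.000162), against -1.43. The 4 further probes of constitutive genes were not called, though those of BUB3 disagreed in sign, at -0.36 ± 0.14, -0.37 ± 0.12 and 0.19 ± 0.13, beside 0.04 for the brightest. The further CENPT probe also differed in sign, at -0.03 ± 0.13, beside 0.13 for the brightest. With the mean of all its kept probes BUB3 had a difference of -0.12. No direction is given for BUB3 or CENPT.

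Further genes of the same structures, from lists written from general knowledge with earlier results of these data known, were read beside the 40. Over all genes, 4.78% were called lower and 5.83% higher with antagomiR-638 than in mock. Of 24 tested among 27 other centromere and kinetochore genes, 12 were lower and 0 higher with antagomiR-638 than in mock (median -0.57), led by SGO2 (-1.39 ± 0.12, adjusted p = 0.000167), which encodes shugoshin 2, SPAG5 (-1.28 ± 0.14, 0.000365), which encodes the spindle protein astrin, and OIP5 (-1.24 ± 0.15, 0.000784), which encodes a CENP-A loading factor. KNL1 (-1.09 ± 0.12, 0.00052), the outer scaffold absent from the 40, was among the 12, and was chosen for mention after its value was seen. Of 10 cohesin and separase genes tested of 12 listed, 3 were lower and 0 higher, ESPL1 (-1.28 ± 0.11, 0.000167), which encodes separase, CDCA5 (-1.18 ± 0.12, 0.000267), which encodes sororin, and PTTG1 (-0.78 ± 0.13, 0.00351), which encodes securin. The anaphase-promoting complex had 13 tested of 16 listed, of which 2 were lower and 0 higher, UBE2C (-1.46 ± 0.12, 0.000152), its ubiquitin-conjugating enzyme, and FBXO5 (-1.06 ± 0.12, 0.00045), its inhibitor EMI1. ANAPC13, a core subunit, had the next largest difference (0.41 ± 0.11, 0.0346), and none of the core subunits tested was called.

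For miR-638 against mock, 0 genes of these 3 lists were called by limma, against 1.13% lower and 1.93% higher over all genes. At an unadjusted p under 0.05, 3 were lower and 5 higher among the other centromere and kinetochore genes, 0 and 0 among cohesin and separase genes, and 0 and 1 in the anaphase-promoting complex, against 13.3% lower and 14.9% higher over all genes. For miR-638 against antagomiR-638, 14, 4 and 2 were higher and 0 lower in the 3 lists, in this order. Over all genes 7.55% were called higher and 8.28% lower.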

How the data were processed

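RNA of 6 arrays was analysed, 2 per group. The deposited intensity values are linear, background-subtracted (26.2% lie below 0) and quantile-normalized across the arrays by the authors with the R package lumi, whose version is not given in the sources used here. The sorted columns differ by at most 0.349 units, although the table is named non-normalized, so that a shift shared by all transcripts would not show. Each probe also has a deposited detection p-value per array from the scanner software. The number of arrays limits the precision, and no depth applies.

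In limma 3.58.1 under R 4.3.3, the normexp model used these detection p-values and added an offset of 16, and quantile normalization and log2 followed. On values already background-subtracted, this step draws differences of dim probes toward 0. A probe was kept where some group had it detected at p under 0.05 on both its arrays, as held for 20145 of 47319. On the platform 30112 probes carry 1 gene symbol, 8 several and 17199 none. The kept probe of highest mean log2 signal stood for its gene. Group means were fitted over all arrays (3 degrees of freedom were residual, and the prior had 6.31). Two-sided p-values were adjusted over all kept probes by the Benjamini-Hochberg method, and a gene was called at 0.01 or less. The fit was checked on simulated log2 values.

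Per-array values are given, in each functional group, for the genes with the largest and the smallest difference between antagomiR-638 and mock, and for every constitutive gene, together with genes called for miR-638. Outside this rule, those of CENPQ, SKA3, BIRC5 and CDCA8 were added after their miR-638 values were seen. Of each further list up to 3 genes are named, by their differences only. Members, classes and lists were chosen with earlier results of these data known. In those, TROAP, GTSE1, HJURP and BIRC5 had already been seen to fall, which is no independent support. Alternatives changed the background correction, offset, normalization, input table, probe filter, threshold, moderation, arrays in the fit, choice of probe and class of the uncertain genes. Others used the replicate number as a block or dropped 1 array at a time. The promoter and microRNA sequences are RefSeq's (GRCh38.p14). Python 3.11.15 with pandas 2.3.3 and matplotlib 3.10.9 was used for the motif counts and plots.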

Additional observations from a re-analysis of the deposited data

How the results depend on the processing

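Of the 25 cell-cycle-driven genes called lower with antagomiR-638 than with mock, 19 to 25 were called when 1 array was left out, and 0 without variance moderation, where the lowest adjusted p of any gene was 0.0131. Their median of -1.27 ranged from -1.31 to -1.22 over the arrays left out, and was -1.04 with an offset of 50, -1.17 with the mean of all kept probes and -1.23 with the uncertain genes added. Among constitutive genes the count of 0 stayed 0 whichever array was left out, and was 1 with an offset of 50, with detection at p under 0.01 on all 6 arrays, at an adjusted p of 0.05 or with the mean of probes, and 3 with the uncertain genes added. Their median of 0.11 ranged from 0.0123 to 0.13, and was -0.44 with the uncertain genes added. BUB3 was at -0.12 with the mean of probes and at -0.0756 to 0.16 over the arrays left out, CENPT at -0.0597 to 0.32 and PMF1 at -0.20 to 0.49, and these 3 genes were called in none of these settings.

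For miR-638 against mock, 1 of the 40 genes was called, but 0 with any array left out, without normexp, without a probe filter, without moderation or with only the 2 groups compared, and 3 with an offset of 50 and 6 at an adjusted p of 0.05. The median of the cell-cycle-driven genes, 0.0433, ranged from -0.0199 to 0.0433 over the arrays left out. For miR-638 against antagomiR-638, the 25 cell-cycle-driven genes called higher became 18 to 25 with an array left out and 0 without moderation. The 2 constitutive genes became 0 to 2 with an array left out, 1 without a probe filter or with the stricter one, 0 without moderation and 8 with the uncertain genes added.

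Over all genes tested in a setting, the 10.6% called in antagomiR-638 against mock became 2.25% to 8.51% with an array left out, 3.82% without a probe filter, 23.6% at an adjusted p of 0.05 and 0 without moderation. The 3.06% called in miR-638 against mock became 0.228% to 1.195% with an array left out, 6.35% with an offset of 50, 0.644% without a probe filter, 5.91% with the stricter one, 11.1% at 0.05, 1.28% with only the 2 groups and 0 without moderation. The 15.8% called in miR-638 against antagomiR-638 became 4.37% to 13.7%, 6.32% without a probe filter, 29.3% at 0.05 and 0 without moderation. For these changes the cause was not tested, beyond the fewer arrays of the fits that leave some out.

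No pairing of the arrays by replicate number was seen, as the differences between replicates of 2 groups correlated at -0.07, -0.05 and -0.06. Whether arrays with the same number were prepared together cannot be told from these values. With the replicate number as a block, the 25 calls of antagomiR-638 against mock stayed at 25, the 1 of miR-638 against mock became 0 and the 2 constitutive calls of miR-638 against antagomiR-638 became 1, with 8.28%, 1.69% and 12.7% of all genes called in the 3 comparisons.

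Calls rest on 2 arrays per group, and a fit without 1 array takes the lone array of its group to vary like the others. Dim probes such as those of CENPI, CENPO and CENPP limit what can be seen, and under the stricter probe filter 37 of the 40 genes were left. The constitutive genes PMF1 and MAD1L1 were dim too, with mock means of 25.7 and 35.4, which limits what their lack of a call shows. The deposited processed table and the fit with no second quantile normalization changed the call of none of the 40 genes for antagomiR-638 against mock. Neither is a separate check. The processed table gave the same counts and class medians as the main fit, and the values were already quantile-normalized.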
